A study of Mus musculus with 2 samples.

Results

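The miR-532 cluster is a group of 5 miRNA genes, Mir532, Mir188, Mir362, Mir501 and Mir500, that lie on the minus strand of the X chromosome inside the gene Clcn5. They were chosen by name and position, with no use of their read counts, and make up 5 of the 2202 miRNA gene rows in each library. The GENCODE M21 annotation places no further miRNA gene on that strand of Clcn5. The libraries came from gastrocnemius, a mostly fast-fibred calf muscle. The mice were males of B6CASTF1/J at 25 days of age, an F1 hybrid of a laboratory strain and a CAST strain. There is 1 group with 2 libraries, called replicates 1 and 2, and no treatment, mutant allele or second condition. The labels number separate males but give both the same donor identifier, and whole muscle holds vessels, blood and connective tissue besides fibres. If both libraries came from 1 animal, the SDs below describe technical spread.

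A miRNA gene is transcribed as a long primary RNA, from which nuclear and cytoplasmic enzymes cut a hairpin and then a short duplex. Either arm of the duplex can guide the silencing of mRNAs, chiefly through the seed, the stretch from base 2 to base 8 that pairs with the target. Members of a cluster can arise from the same primary RNA and still end at different levels, because each hairpin is cut and each mature RNA decays at its own rate. Clcn5 encodes an exchanger of chloride and protons in endosomes, best known from the proximal tubule of the kidney, and its loss causes Dent disease in humans. In the mouse, miR-501 has been described in activated muscle stem cells, where it acts on gigaxonin and thereby on myosin heavy chain. Also in the mouse, miR-188 has been described as shifting bone marrow stem cells between bone and fat fates. In human cancer cells, miR-532-5p has been tied to RUNX3 and miR-362-5p to CYLD.

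The hairpins are shown in full because their sequences set which members a short read can be assigned to. They are RefSeq sequences of build GRCm38.p6, the assembly of mm10, on the minus strand and written 5′ to 3′ in the order of transcription, with capitals marking the mature sequences held in the same table.
Mir532: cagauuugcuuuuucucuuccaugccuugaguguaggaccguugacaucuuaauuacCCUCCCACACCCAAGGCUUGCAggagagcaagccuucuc
Mir188: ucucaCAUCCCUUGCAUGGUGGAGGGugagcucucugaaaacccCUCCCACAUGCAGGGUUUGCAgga
Mir362: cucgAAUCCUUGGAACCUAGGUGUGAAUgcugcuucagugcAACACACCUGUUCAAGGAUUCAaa
Mir501: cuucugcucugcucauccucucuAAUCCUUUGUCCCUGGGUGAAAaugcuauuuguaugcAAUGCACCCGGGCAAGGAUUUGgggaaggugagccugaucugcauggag
Mir500: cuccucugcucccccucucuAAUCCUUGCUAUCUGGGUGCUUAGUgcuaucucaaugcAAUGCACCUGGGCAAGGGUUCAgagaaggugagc

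In mm10, Mir532 (ENSMUSG00000070139.1) is at chrX:7248402-7248497 and Mir188 (ENSMUSG00000065398.1) at chrX:7247989-7248056. Mir362 (ENSMUSG00000070100.1) is at chrX:7241982-7242046, Mir501 (ENSMUSG00000076251.1) at chrX:7241243-7241351 and Mir500 (ENSMUSG00000070108.2) at chrX:7237683-7237774. All 5 lie within 10815 bases and in a single intron of 103648 bases (chrX:7213011-7316658). That intron belongs to 3 of the 5 annotated Clcn5 transcripts. The other 2 transcripts begin downstream of the cluster, and no Clcn5 exon overlaps a member. The spacing is uneven: Mir188 follows Mir532 after 345 bases and Mir501 follows Mir362 after 630 bases, whereas 5942 bases separate Mir188 from Mir362 and 3468 bases separate Mir501 from Mir500.

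Some members share a seed and others do not. The 9 mature sequences in the RefSeq table carry 7 different seeds, in capitals here.
miR-501-3p: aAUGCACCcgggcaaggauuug
miR-500-3p: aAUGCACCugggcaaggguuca
miR-362-5p: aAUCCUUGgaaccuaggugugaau
miR-500-5p: aAUCCUUGcuaucugggugcuuagu
miR-501-5p: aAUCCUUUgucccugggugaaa
miR-362-3p: aACACACCuguucaaggauuca
miR-188-5p: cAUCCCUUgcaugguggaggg
miR-188-3p: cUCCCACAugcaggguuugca
miR-532-3p: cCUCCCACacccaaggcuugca
The 3p arms of Mir501 and Mir500 share a seed, as do the 5p arms of Mir362 and Mir500. Counted from 1 at the 5′ end, with the base of miR-501-3p first, the pair of 3p arms differs at 4 of 22 positions, by C9U, A18G, U21C and G22A. These substitutions all lie outside the seed. Mir501 and Mir500 were also the most alike as hairpins, with 67.3% identity in a global alignment and a longest shared run of 14 bases. The other 9 pairs of hairpins had 42.7 to 57.9% identity and shared runs of 5 to 10 bases.

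No member shared a stretch of 20 bases, on either strand, with any other annotated miRNA gene. None of the 9 mature sequences occurred in a GENCODE M21 transcript of another gene. This bears on the counts, since reads that aligned to several loci, 69.8% of replicate 1 and 71.8% of replicate 2, are in no gene row. Whether copies exist outside annotated transcripts was not analysed here. B6CASTF1/J names the mother's strain before the father's by the usual convention, and a male takes its X chromosome from its mother, so the cluster would carry the C57BL/6J allele on which mm10 is built. This was not examined in the reads.

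Gene counts on the strand of the gene totalled 1491341 in replicate 1 and 2028332 in replicate 2, and levels are given as CPM, each count scaled to these totals. Exact 95% intervals cover counting error only. As a check of the tissue, replicate 1 had 53367 CPM and replicate 2 had 46543 CPM of Mir206, a miRNA of striated muscle. The list of 8 striated muscle miRNA genes held 5.16 ± 0.482% of gene counts (SD, n = 2), nearly all of it from Mir206. Mir486, Mir499 and Mir1a-2 had means of 750, 435 and 412 CPM, whereas Mir133a-1, Mir133b, Mir1a-1 and Mir133a-2 had means of 16.6, 16.1, 10.7 and 2.31 CPM. These values cover uniquely aligned reads only, since reads at several loci are in no gene row. Genes with a close copy elsewhere, such as those of miR-1a and miR-133, can therefore be understated, and their low counts do not show that these miRNAs were scarce.

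All 5 members were detected, each with at least 10 counts in both libraries, as were 267 of the 2202 genes. Together they had 3223 counts in replicate 1, or 0.216% of gene counts (exact 95% interval 0.209 to 0.224%). In replicate 2 they had 4323 counts, or 0.213% (0.207 to 0.220%). The intervals overlap, and the mean share was 0.215 ± 0.00211% (SD, n = 2). In a bulk sample, more cells that express a miRNA and more of it in each cell cannot be told apart.

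Mir532, the first hairpin in the direction of transcription, was the highest member. It had 2157 counts in replicate 1 and 3052 in replicate 2, which are 1446 CPM (exact 95% interval 1386 to 1509) and 1505 CPM (1452 to 1559). Its mean of 1476 ± 41.2 CPM (SD, n = 2) placed it 52nd among all miRNA genes, and it held that place in each library. Ranks here and below use uniquely aligned reads, so genes whose sequences recur at several loci can rank too low. The libraries thus put Mir532 at nearly the same level, with overlapping intervals.

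Mir188 lies 345 bases downstream of Mir532 and was far lower. It had 105 counts in replicate 1 and 120 in replicate 2, or 70.4 CPM (57.6 to 85.2) and 59.2 CPM (49.1 to 70.7). With a mean of 64.8 ± 7.95 CPM (SD, n = 2) it was 182nd among all genes. Counts of Mir532 exceeded those of Mir188 by 4.36 on the log2 scale in replicate 1 and 4.67 in replicate 2. The closest pair of hairpins in the cluster therefore had the widest gap in counts between neighbours along the intron, a mean of 22.9-fold.

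Mir362 was the lowest member. It had 63 counts in replicate 1 and 70 in replicate 2, or 42.2 CPM (32.5 to 54.0) and 34.5 CPM (26.9 to 43.6), with a mean of 38.4 ± 5.47 CPM (SD, n = 2). It was 201st among all genes. Both values lie above what a count of 0 would allow, 2.01 CPM for replicate 1 and 1.48 CPM for replicate 2. Mir501, 630 bases further on, was higher than Mir362 in both libraries, and the log2 ratio of Mir362 over Mir501 was -3.44 in replicate 1 and -3.49 in replicate 2.

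Mir501, the member with a described role in mouse muscle stem cells, came after Mir532. It had 683 counts in replicate 1 and 789 in replicate 2, or 458 CPM (424 to 494) and 389 CPM (362 to 417). Replicate 1 was the higher library and the intervals did not overlap. The mean was 423 ± 48.8 CPM (SD, n = 2), the 89th place among all genes.

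Mir500, the last hairpin and the one most like Mir501 in sequence, came next. It had 215 counts in replicate 1 and 292 in replicate 2, or 144 CPM in each (126 to 165 in replicate 1 and 128 to 161 in replicate 2). Its mean of 144 ± 0.145 CPM (SD, n = 2) was the 142nd highest. Mir501 exceeded Mir500 in counts by 1.67 on the log2 scale in replicate 1 and 1.43 in replicate 2, a mean of 2.93-fold. The gene counts add both arms of a hairpin, so they do not show whether the arms with a shared seed differ in the same way.

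**Figure D1:**
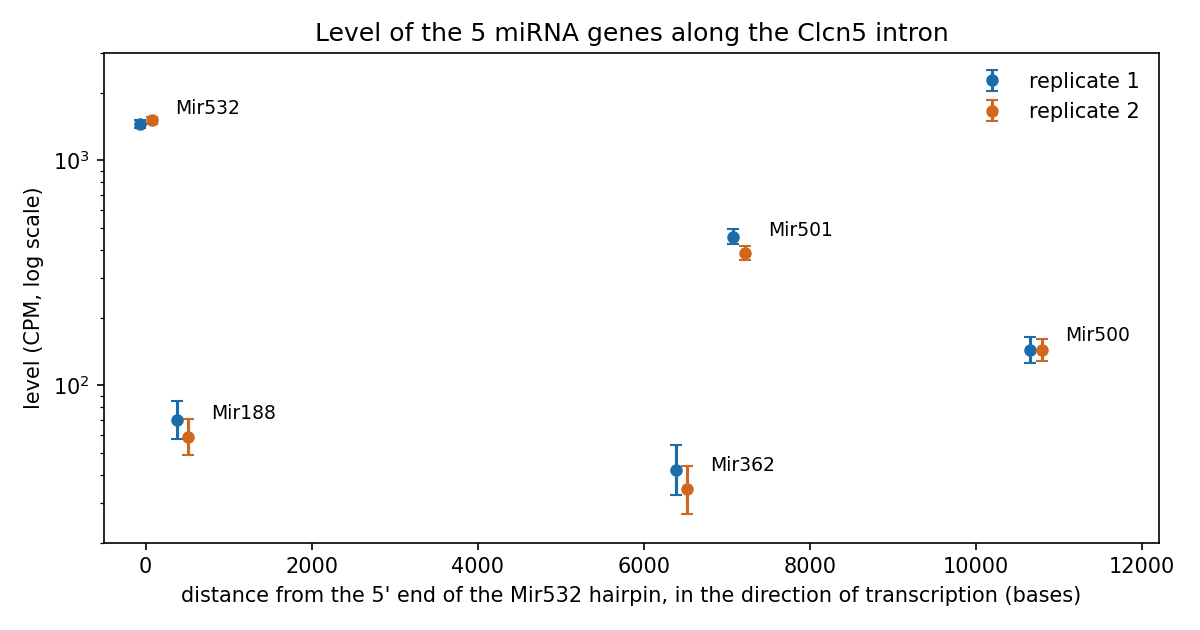
Level of each member (CPM, log scale) against its distance in bases from the 5′ end of the Mir532 hairpin; points are the 2 libraries, set slightly apart, and bars are exact 95% intervals. Levels do not fall steadily along the intron: Mir532 at 1446 and 1505 CPM lies beside Mir188 at 70.4 and 59.2 CPM, and Mir501 at 458 and 389 CPM follows Mir362.

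The order of levels was Mir532, Mir501, Mir500, Mir188, Mir362 in each library. For every neighbouring pair in this order the values of the 2 libraries did not overlap, and within each library the intervals did not overlap either. The steps were 3.50-fold from Mir532 to Mir501, 2.93-fold to Mir500, 2.23-fold to Mir188 and 1.69-fold to Mir362, as means over the libraries. Mir532 stood 38.6-fold above Mir362. Per 100 bases of annotated hairpin, the order was the same, and lengths of 65 to 109 bases could not have changed it. On that scale Mir532 had 1537 ± 43.0 CPM per 100 bases, Mir501 389 ± 44.8, Mir500 157 ± 0.157, Mir188 95.3 ± 11.7 and Mir362 59.0 ± 8.41 (SD, n = 2). The order of levels did not follow the order along the intron: the first hairpin was the highest, but Mir188 and Mir362, next along the intron, were the lowest.

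**Figure D2:**
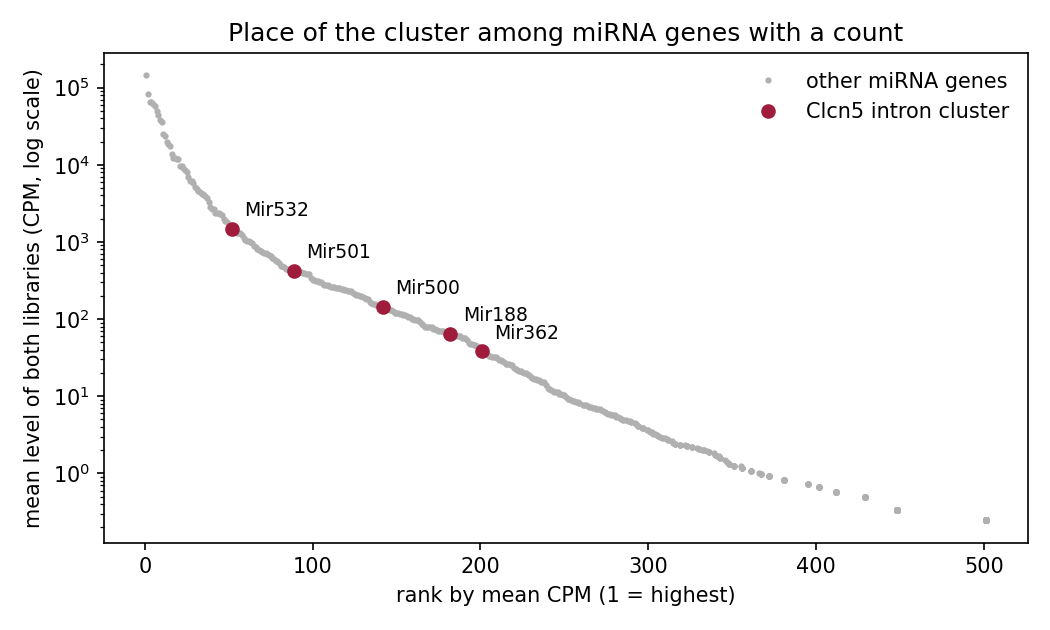
Mean level over both libraries (CPM, log scale) of every miRNA gene with a count, against its rank, with the 5 members in red. They span ranks 52 to 201, and 3 of them lie below the median of 165 CPM over the 267 genes with at least 10 counts in both libraries. Levels and ranks use uniquely aligned reads only.

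The hairpins themselves differed in predicted folding energy. The minimum free energy computed with RNAfold was -46.9 kcal/mol for Mir501, -41.9 for Mir500, -33.2 for Mir532, -28.8 for Mir188 and -28.5 for Mir362. GC content ran from 46.2% in Mir362 to 55.9% in Mir188. These energies cover annotated hairpins of 65 to 109 bases. Per base, the energy was -0.455 kcal/mol for Mir500, -0.438 for Mir362, -0.430 for Mir501, -0.424 for Mir188 and -0.346 for Mir532, so the order of the members depended on the scale. The highest member, Mir532, did not have the lowest energy on either scale, nor the highest GC content. With 5 hairpins, these values are a description.

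Within the cluster, Mir532 held most of the counts, 66.9% in replicate 1 (exact 95% interval 65.3 to 68.5%) and 70.6% in replicate 2 (69.2 to 72.0%). Mir501 held 21.2% in replicate 1 (19.8 to 22.6%) and 18.3% in replicate 2 (17.1 to 19.4%). For these 2 genes the intervals of the libraries did not overlap, a difference beyond counting error. Shares within a cluster depend on each other, since a higher share of Mir532 lowers the rest. Differences beyond counting error were common: the binomial test described below called 38.3% of all 313 tested genes between the libraries. Mir500 held 6.67% and 6.75%, Mir188 3.26% and 2.78%, and Mir362 1.95% and 1.62% in replicates 1 and 2, with overlapping intervals for each.

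**Figure D3:**
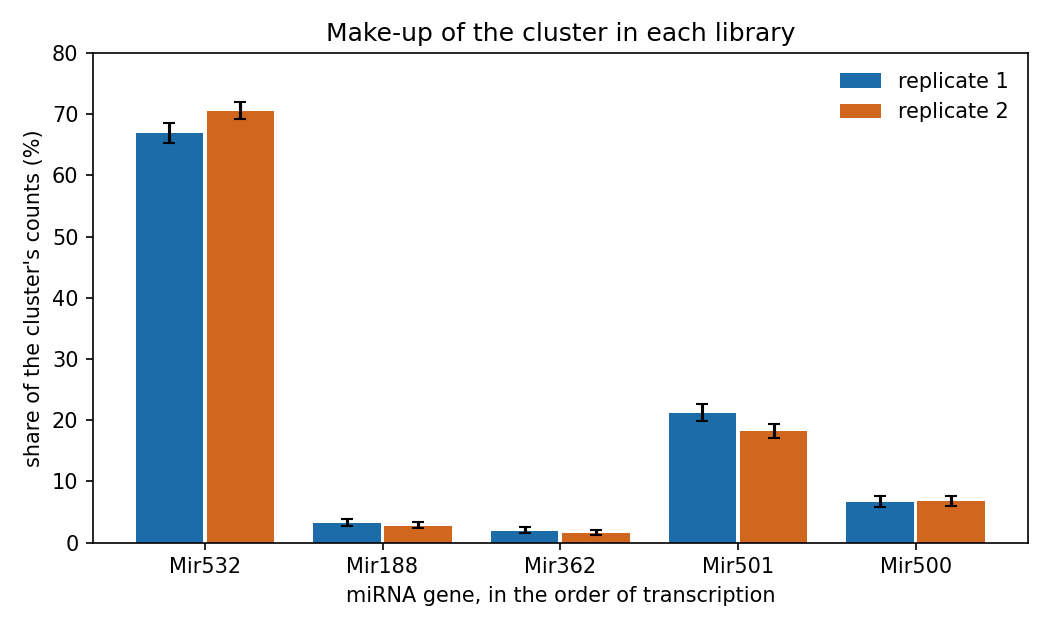
Share of the cluster's counts (%) held by each member in each library, with exact 95% intervals as bars. Mir532 made up 66.9% in replicate 1 and 70.6% in replicate 2, and Mir501 21.2% and 18.3%.

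Between the libraries, Mir501 was the single member that passed the test. The design has no conditions to compare, so this asks only how far the libraries differ. An exact binomial test, two-sided, was run on the counts of each gene, with Benjamini-Hochberg adjustment over 313 genes and a threshold of 0.05. Mir501 was the higher in replicate 1. Its log2 ratio, replicate 1 over replicate 2, was 0.23, with a 95% interval of 0.08 to 0.37 and an adjusted p = 0.00887 in the exact binomial test. 1 of 5 members was thus called, where 38.3% of all tested genes were called in either direction and 18.5% were higher in replicate 1. The members' count is near that background.

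The other 4 members did not pass. Mir532 had a log2 ratio of -0.07 (interval -0.15 to 0.01, binomial test adjusted p = 0.185) and Mir500 of -0.01 (-0.27 to 0.25, adjusted p = 0.993). Mir188 stood at 0.24 (-0.15 to 0.63, adjusted p = 0.359) and Mir362 at 0.28 (-0.23 to 0.79, adjusted p = 0.445), point values as large as that of Mir501 but with wider intervals from lower counts. The intervals of Mir501 and Mir532 did not overlap. The median of the members was 0.23, beside -0.05 over all 313 tested genes. When the spread between the libraries was added to counting error, no member passed (adjusted p = 1 for each, edgeR exact negative binomial test), and 0 of 313 genes passed, with 15 at an unadjusted p under 0.05. Because that spread comes from the 2 libraries under test, it makes a pass hard for any gene.

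**Figure D4:**
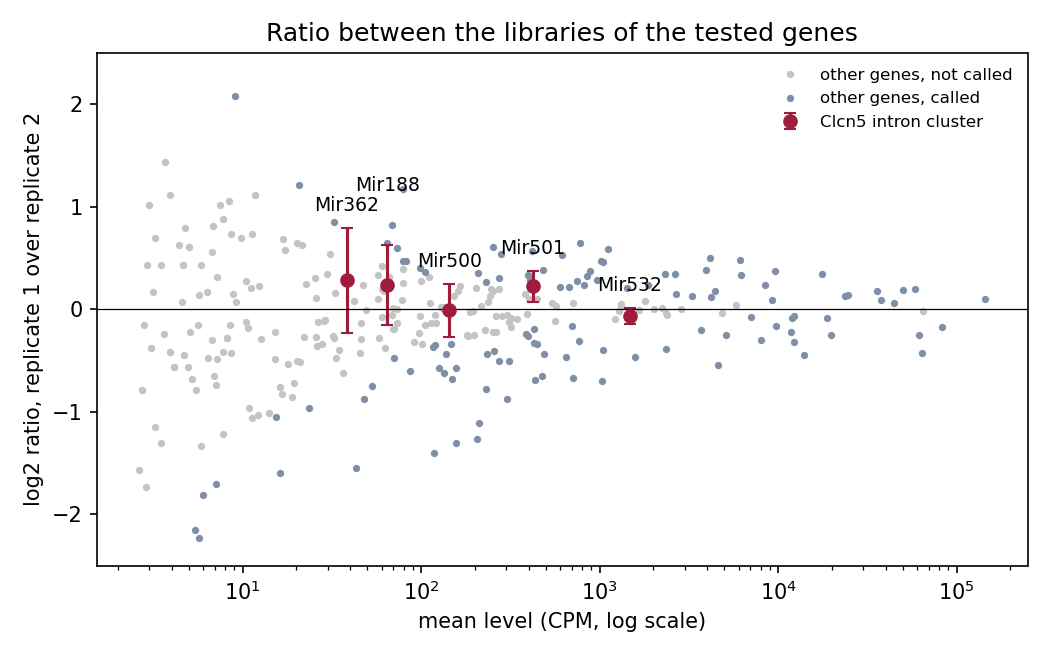
Log2 ratio of replicate 1 over replicate 2 against mean level (CPM, log scale) for the 313 tested genes, with called genes darker and the members in red with exact 95% intervals. The interval of Mir501 lies above 0, at 0.08 to 0.37, and those of the other 4 members include 0.

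Several cell type markers also differed between the libraries by the binomial test, which called 38.3% of all 313 tested genes. With the spread between the libraries added to counting error, 0 of 313 genes passed. A difference in cell make-up is therefore not shown. The 8 striated muscle genes held 5.50% of gene counts in replicate 1 and 4.82% in replicate 2, and 7 of the 8 had at least 10 counts in both. The list did not move as one: by the binomial test Mir206, Mir486 and Mir1a-2 were higher in replicate 1 (log2 ratios 0.19, 0.27 and 0.20), Mir499 was lower (-0.69), and Mir133a-1, Mir133b and Mir1a-1 did not pass (-0.82, -0.75 and -0.18). The smooth muscle and pericyte genes Mir143 and Mir145a held 5.89% and 7.87%, the endothelial Mir126a 7.83% and 8.75%, 4 leukocyte genes 0.266% and 0.229%, and the erythroid genes Mir451a and Mir144 0.0174% and 0.0355%, in replicates 1 and 2. Among the leukocyte genes, by the binomial test, Mir150 and Mir155 were higher in replicate 1 (log2 ratios 0.47 and 0.29) and Mir223 and Mir142 were lower (-0.51 and -0.44). Every gene of these other lists had at least 10 counts in both libraries. Their part in the difference of Mir501 was not tested.

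Few miRNA genes outside the cluster carry a seed of the 9 mature sequences shown above, which do not include miR-532-5p. Of all mature mouse miRNAs in the RefSeq table, those of 2 further genes matched, and both were found in the files. Mir329, of the imprinted Dlk1-Dio3 cluster on chromosome 12, shares the seed of miR-362-3p. It had 620 counts in replicate 1 and 1134 in replicate 2, or 416 and 559 CPM. Per 100 bases of hairpin, Mir329 had 502 ± 104 CPM, beside 59.0 ± 8.41 CPM for Mir362 (SD, n = 2). These counts add both arms, so they do not show the levels of the 3p arms that share the seed. Mir329 was lower in replicate 1, at a log2 ratio of -0.44 (binomial test adjusted p = 4.44e-09). Mir7061, which shares the seed of miR-188-5p, had 0 counts in replicate 1 and 1 in replicate 2. For the seed shared by miR-501-3p and miR-500-3p, the table held no carrier outside the cluster.

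Among the 142 miRNA genes of the X chromosome, the cluster held 7.76% of counts in replicate 1 and 7.45% in replicate 2. Ordered by mean CPM, Mir532 was in place 5, after Mir322 of the cluster with Mir503 (12194 ± 1857 CPM), Mirlet7f-2 and Mir98 in the gene Huwe1 (4425 ± 420 and 2670 ± 211 CPM) and Mir361 in Chm (1805 ± 82.8 CPM; SD, n = 2 each). Mir652 in Tmem164 came next with 1310 ± 23.9 CPM. Mir501 was in place 9, Mir500 in place 13, Mir188 in place 18 and Mir362 in place 20. Of 28 tested X-linked genes outside the cluster, 7 passed as higher and 2 as lower in replicate 1, and 19 missed the threshold. Their median log2 ratio was -0.03. Over all 313 tested genes, 18.5% passed as higher and 19.8% as lower in replicate 1 by the same binomial test.

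The genes nearest to each member in level over the 2 libraries, by Euclidean distance in log2 CPM among 262 other genes with at least 10 counts in both, came from other loci. For Mir532 they were Mir17 (1438 and 1495 CPM in replicates 1 and 2, distance 0.0129) and Mir196a-2 (1524 and 1306 CPM, distance 0.217). For Mir501 they were Mir1a-2 (443 and 382 CPM, distance 0.0558) and the X-linked Mir542 (446 and 364 CPM, distance 0.104). For Mir500 they were Mir671 at 0.0304 and Mir106b at 0.140. For Mir188 they were Mir378d at 0.0682 and Mir700 at 0.106, and for Mir362 Mir339 at 0.0510 and Mir511 at 0.250. Members were not compared with each other here, and over 2 libraries a small distance says only that the uniquely aligned counts were alike. Some of these genes, such as Mir1a-2 and Mir196a-2, have a close copy elsewhere, and reads shared with it are in no gene row.

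No member had a read on the opposite strand, with 0 counts in each library. At these depths that allows a level of up to 2.01 CPM for replicate 1 and 1.48 CPM for replicate 2. Counts without regard to strand were equal to those on the strand of the gene for all 5 members.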

How the data were processed

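The authors deposited raw read counts per miRNA gene, unnormalized, for mm10 and GENCODE M21, per the README deposited with the files. No source used here names the aligner or its version, or says how mismatches were treated. An RNA size range below 30 is stated, per the labels. Each file holds 3 count columns without a header. From the values, the first ignores strand, the second counts reads on the strand of the gene (used here) and the third those on the opposite strand. Summary rows (reads at several loci, 69.8% and 71.8% of all reads in replicates 1 and 2, 8.11% and 5.99% that did not align, and 2.21% and 1.64% outside any miRNA gene) stayed out of library sizes and tests. Gene counts were 19.9% and 20.6% of reads.

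CPM used plain totals. Ratios of replicate 1 over replicate 2 used TMM effective library sizes over all gene rows (edgeR 4.0.16, R 4.3.3), and the binomial test ran on genes with at least 10 counts summed. A quasi-likelihood test has no contrast in 1 group. The script of the binomial test was tested on simulated data with known changes and counting error only. Those data did not hold the further spread seen between these libraries, so that run does not bear on it. Intervals are Clopper-Pearson 95% intervals (scipy 1.17.1). They and the limit for a count of 0 (3 counts) describe counting error alone, because PCR can copy 1 molecule into many reads. Hairpins were folded with RNAfold 2.7.2 and aligned with Biopython 1.88 (match 1, mismatch -1, gap -2, extension -0.5). DESeq2 1.42.0 size factors served as an alternative. Sequences are from RefSeq (GRCm38.p6): all 5 members matched by symbol.

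The members were picked by name and position, not by their counts, but earlier results of these data were known when the members, lists and tests were chosen. Besides the 5 members, genes named are those with a member's seed, the 5 highest other X-linked genes, the 2 nearest genes to each member, and cell type markers.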

Additional observations from a re-analysis of the deposited data

How the results depend on the processing

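The order of the members was the same per hairpin length and in either library alone. Scaling by lengths of 65 to 109 bases could not change it, since the smallest step was 1.69-fold. Counts without regard to strand equal those used, so the ratios between members cannot change with that column. With 2 libraries, a mean without 1 of them always moves by less than 1 SD, so leaving out a library says nothing of stability here. TMM sizes moved no CPM value and not the cluster's share by more than 1 SD. With 2 libraries the TMM factors are reciprocal (1.004 and 0.996 in replicates 1 and 2), so their effects nearly cancel in a mean. That outcome says nothing of stability either. CPM values scale with the total. Without regard to strand, where Mir378a and other overlapped genes lose their reads, Mir532, Mir188, Mir362, Mir501 and Mir500 had 1974, 86.7, 51.4, 567 and 193 CPM, and the cluster held 0.287%. With Mir378a left out of the total, they had 1725, 75.8, 44.9, 495 and 168 CPM. With all reads of the library as the total, they had 299, 13.1, 7.76, 85.6 and 29.2 CPM.

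Mir501 stayed past the threshold under plain totals, DESeq2 size factors, no filter, counts without regard to strand and a TMM limited to genes with at least 10 counts, the last chosen after seeing the data, with log2 ratios of 0.21 to 0.28 and binomial test adjusted p from 0.000934 to 0.0204. Those runs reuse the same counts of Mir501 and cover counting error only. They differ in library sizes or in the adjustment, so they are not separate support. Mir501 did not pass with the spread between libraries added (log2 ratio 0.23, adjusted p = 1, edgeR exact negative binomial test), where the number of genes called was 0, against 120 by the binomial test. The ratio of Mir500, near 0, turned sign to 0.0021 with plain totals, 0.043 with DESeq2 size factors and 0.040 with the limited TMM, and never passed. No paired analysis was possible because the design has 1 group. Depth limits Mir188 and Mir362, whose counts of 63 to 120 leave their ratios uncertain.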

Other observations

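Groups of miRNA genes on one strand with gaps of at most 10000 bases and at least 3 genes with 10 counts in both libraries were listed after the data had been seen. There were 11 such groups, the miR-532 cluster among them. In the miR-532 cluster the leading gene held a mean of 68.8% of the group's counts, against a median of 80.7% over the other 10 groups. In 6 groups the leading gene held more than the 68.8% of Mir532 and in 4 it held less, from 98.7% for Mir23a to 37.4% for Mir411. The log2 ratio of the highest over the lowest gene by mean CPM was 5.26 in the miR-532 cluster and a median of 7.33 in the others. Shares and ratios covered only genes with at least 10 counts in both libraries, as all 5 members of the miR-532 cluster had. Lower genes of other groups were left out, such as Mir450-2 near Mir322 (8 and 15 counts in replicates 1 and 2). Ratios of such groups can therefore be understated. No test was run, and the other groups include genes whose sequences recur at several loci, such as those of let-7 and miR-24, whose reads are then in no gene row. How much of the inequality there comes from such missing reads was not tested.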
